A study of Homo sapiens with 10 samples.

Results

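The comparison was the step between 20 and 50 h of calcitriol in SKBR3 cells, a human breast carcinoma line with an amplified ERBB2 gene and a mutant p53. The 2 arrays of cells given calcitriol for 50 h were set against the 2 arrays of cells given it for 20 h, so 4 of the 10 arrays of the study made up the step. In each pair 1 array came from cells transfected with siRNA against p53 (p53i) and 1 from control cells whose siRNA targeted LacZ, a gene of bacteria (LacZi), and the pairs were matched by siRNA. Calcitriol (D3 below) is the active hormone made from vitamin D3 and was given at 100 nM. The other 6 arrays were p53i and LacZi cells at 8 h of D3, with 1 array each, and untreated p53i and LacZi cells, with 2 arrays each. All 10 samples were transfected and grown in medium with charcoal-stripped serum, which is depleted of steroid hormones. The labels of the samples put D3 24 h after transfection, and the series text puts it 48 h after. The 50 h cells had also been longer in culture after transfection than the 20 h cells, and no untreated array was labelled as harvested at either time, so length of D3 exposure and length of culture cannot be told apart.

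Calcitriol binds the vitamin D receptor (VDR), a nuclear receptor that pairs with a retinoid X receptor such as RXRA and binds response elements at its target genes. The target known best is CYP24A1, the hydroxylase that breaks calcitriol down and so limits its own signal. In epithelial and breast cancer cells calcitriol is known for slowing proliferation and for inducing genes of ion transport, differentiation and innate defence, some directly and some through later rounds of transcription.

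The values are MAS5 signals, linear microarray brightness values scaled so that each array had the same trimmed mean of 200, and 12023 genes were above the signal filter of 35.4. Differences are on the log2(signal + 16) scale, 50 h minus 20 h, with the standard error (SE) of a limma model over all 10 arrays, and the p-values were adjusted over all genes tested with a threshold of 0.05. Each D3 group held 1 array, so the siRNAs served as the replicates of a time. Values are from the brightest probe set of a gene. Of 141 genes named by rule, 53 had another probe set as bright as the dimmest gene tested, and in 24 of these at least 1 such probe set had a mean step of opposite sign. The untreated duplicates are titled biological replicates, but the labels do not say whether the D3 samples were grown as separate cultures. In the test of the step the spread came from those duplicates and from unlike time courses of the siRNAs. A real siRNA difference in time course is thus counted as spread, and part of the spread may be technical. Median signals ran from 35.7 to 44.3 over the 10 arrays, and the ratio of 3′ to 5′ ACTB signal, a measure of RNA integrity, was 6.12 (p53i) and 4.60 (LacZi) at 50 h, against 7.11 (p53i) and 4.80 (LacZi) at 20 h. The highest ratio of the study was 8.72 in 1 untreated p53i array. Defining SKBR3 markers were strong on every array, with ERBB2 between 12690 and 19099 and KRT18 between 17758 and 29750, while the epithelial cadherin gene CDH1 stayed between 2.80 and 23.9, and the level of the p53 siRNA's target was not analysed here.

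Between 20 and 50 h almost no gene passed the test. LINGO3 was the only gene called, lower at 50 h, which is 0.00832% of the genes tested, and 0% were called higher. An unadjusted p under 0.05 was reached by 507 genes, where 601 would be expected by chance. The step was at least 2-fold in 360 genes in p53i cells and in 236 genes in LacZi cells, but the untreated duplicates differed from each other by at least 2-fold in 430 genes in p53i cells and in 319 genes in LacZi cells. A difference of at least 2-fold in the same direction in both siRNAs was found for 25 genes, 16 higher at 50 h (0.133%) and 9 lower (0.0749%). The same rule applied to the untreated duplicates, replicate 2 minus replicate 1, found 34 genes. Of the 25 genes, 0 had a mean signal of 200 or more, a level reached by 7516 of the genes tested. In either direction, 25.5% of all genes were higher at 50 h in both siRNAs and 27.2% were lower in both, and the correlation of the steps between the siRNAs across genes, which are not independent replicates, was 0.057.

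**Figure D1:**
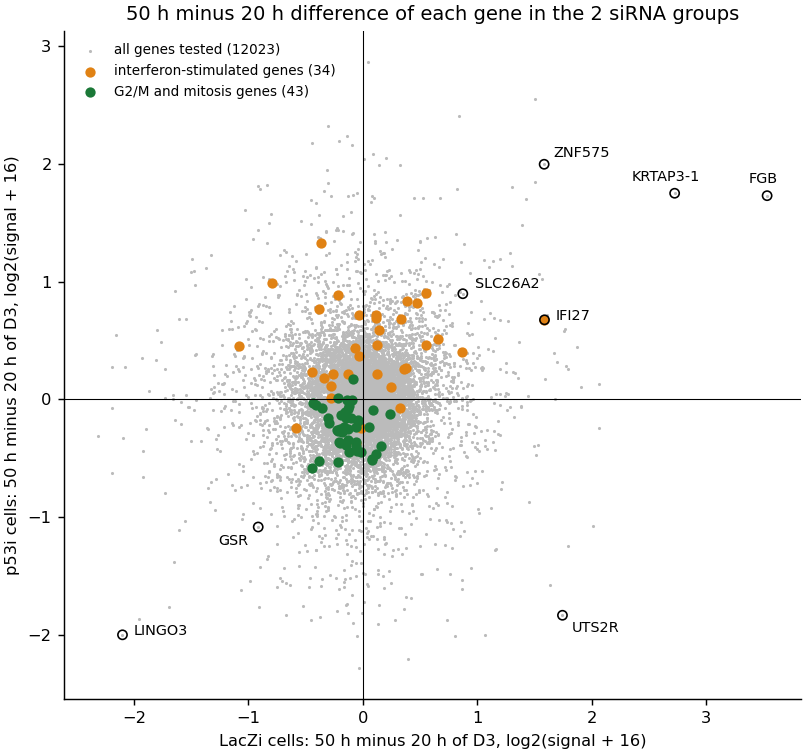
Each point is a gene, with its 50 h minus 20 h difference in LacZi cells across and in p53i cells up, both on the log2(signal + 16) scale. Grey points are all 12023 genes tested, coloured points are 34 interferon-stimulated genes and 43 G2/M genes, and circled genes are named. LINGO3 lies at the lower left, and the G2/M genes lie mostly below 0 on both axes.

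LINGO3 encodes a transmembrane protein with leucine-rich repeats and an immunoglobulin-like domain. Its signal was 24.9 in p53i cells and 24.3 in LacZi cells at 50 h, against 148 in p53i cells and 157 in LacZi cells at 20 h. The 50 h arrays also lay below the other 6 arrays, where the signal ran from 94.7 to 131, while the 20 h arrays were the highest of the 10. LINGO3 fell by 2.05 ± 0.24 (SE) on the log2 scale, with an adjusted p of 0.0185. The call rested on 1 probe set. The other probe set for LINGO3 lay below the filter, with a mean signal of 14.6, and its differences were 0.19 in p53i cells and 0.13 in LacZi cells. The direction was the same in every one of the alternative fits that kept the gene, but the call was lost in many of them. The adjusted p was 0.154 with no signal filter, 0.513 with 8 group means, 0.0543 with only the 4 arrays of the step and 0.0631 with only the 6 D3 arrays. Leaving out the 50 h array of p53i cells gave 0.191 and that of LacZi cells 0.447, and leaving out the 20 h array of p53i cells gave 0.49 and that of LacZi cells 0.296. With the 8 h array of p53i cells left out it was 0.0556, with that of LacZi cells 0.0551, and with the first or the second untreated LacZi array 0.0532 or 0.0522.

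The receptor and its partner were followed first. VDR had signals of 474 in p53i cells and 619.9 in LacZi cells at 50 h, against 541 in p53i cells and 680.5 in LacZi cells at 20 h, a difference of -0.16 ± 0.15. Within each siRNA the 50 h array had the lowest signal of its 5 arrays, but the p53i 20 h value lay below the LacZi 50 h value. A second VDR probe set, with a mean signal of 225, gave 0.29 in p53i cells and -0.48 in LacZi cells. RXRA differed by 0.12 ± 0.15 and neither gene passed the test.

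CYP24A1 was at a plateau over this interval. In p53i cells its signal was 34.5 and 23.7 untreated, 4824 at 8 h, 4502 at 20 h and 4234 at 50 h. In LacZi cells it was 34.9 and 40.0 untreated, 5489 at 8 h, 5039 at 20 h and 6476 at 50 h. All 6 D3 arrays were far above the 4 untreated ones, and the step of 0.14 ± 0.16 had opposite signs in the siRNAs, -0.09 in p53i cells and 0.36 in LacZi cells.

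As a group, the genes raised early gave little further difference. In both siRNAs 19 genes were at least 2-fold higher at 8 h than in untreated cells, a choice that used none of the 4 arrays of the step but was made with the other results known. Their median step from 20 to 50 h was -0.09, with -0.26 in p53i cells and -0.11 in LacZi cells, and it was near 0 over all genes tested (-0.01). The step was higher at 50 h in both siRNAs for 3 of the 19 and lower in both for 8. These shares were 25.5% and 27.2% over all genes. Both 50 h arrays lay above both 20 h arrays for 1 of the 19, the weakly expressed locus LOC100506858, and below them for 3, shares that were 13.4% and 14.4% over all genes. Another 6 genes were at least 2-fold lower at 8 h in both siRNAs, all but IFI27 with mean signals of 44.1 to 86.7. Their median step was 0.31, with 0.47 in p53i cells and 0.13 in LacZi cells. Of these 6, 3 were higher at 50 h in both siRNAs and 1 was lower in both. TRPV6, the epithelial calcium channel, had signals of 584 (p53i) and 532 (LacZi) at 50 h, against 749 (p53i) and 583 (LacZi) at 20 h. SOCS3, an inhibitor of cytokine signalling, had 549.7 (p53i) and 351.3 (LacZi) at 50 h, against 578 (p53i) and 489 (LacZi) at 20 h. For both, all D3 arrays lay above all untreated arrays, where TRPV6 reached at most 313 and SOCS3 at most 212. PNMT, the enzyme that makes adrenaline, had its highest signals at 8 h in both siRNAs, 153 in p53i cells and 244 in LacZi cells, and 75.0 in p53i cells and 136 in LacZi cells at 50 h. ITPR1, a calcium release channel of the endoplasmic reticulum, had a step of 0.07 ± 0.28.

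Some genes had their highest signal at 50 h, among them SLC26A2, which also belonged to the 19 genes at least 2-fold higher at 8 h. SLC26A2, a sulfate transporter, had signals of 710.3 in p53i cells and 1664 in LacZi cells at 50 h, against 374 in p53i cells and 900.3 in LacZi cells at 20 h. In both siRNAs the signal was ordered from untreated cells through 8 and 20 h to 50 h, but the LacZi 20 h array lay above the p53i 50 h array. The step was 0.89 ± 0.19, nearly the same in p53i (0.90) and LacZi cells (0.87), with an unadjusted p of 0.0006 and an adjusted p of 0.715. The other 2 probe sets for SLC26A2 gave mean steps of 0.83 and 0.84. TM7SF2, a sterol reductase of cholesterol synthesis, had 1656 (p53i) and 2221 (LacZi) at 50 h, against 1068 (p53i) and 1338 (LacZi) at 20 h, and at most 466 in untreated cells. Both 50 h arrays lay above all 8 others, and the step was 0.68 ± 0.16 with an adjusted p of 0.715. STEAP4, a metalloreductase, had 1239 (p53i) and 1813 (LacZi) at 50 h, against 753 (p53i) and 1158 (LacZi) at 20 h, a step of 0.67 ± 0.16. None of these passed the test over all genes.

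The same order from untreated cells to 50 h in both siRNAs was seen in 3 weaker genes. KLK6, a secreted serine protease, had 116 (p53i) and 395 (LacZi) at 50 h, against 77.8 (p53i) and 143 (LacZi) at 20 h. ERVW-1, an endogenous retroviral envelope gene, had 251 (p53i) and 719.7 (LacZi) at 50 h, against 149 (p53i) and 316 (LacZi) at 20 h. WLS, the carrier that brings Wnt proteins to the cell surface, had 217 (p53i) and 444 (LacZi) at 50 h, against 123 (p53i) and 223 (LacZi) at 20 h. For each of the 3 the signal was higher in LacZi than in p53i cells at both times, and the 50 h and 20 h groups overlapped. Their steps were 0.93 ± 0.39, 0.92 ± 0.36 and 0.84 ± 0.32, and none passed the test.

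**Figure D2:**
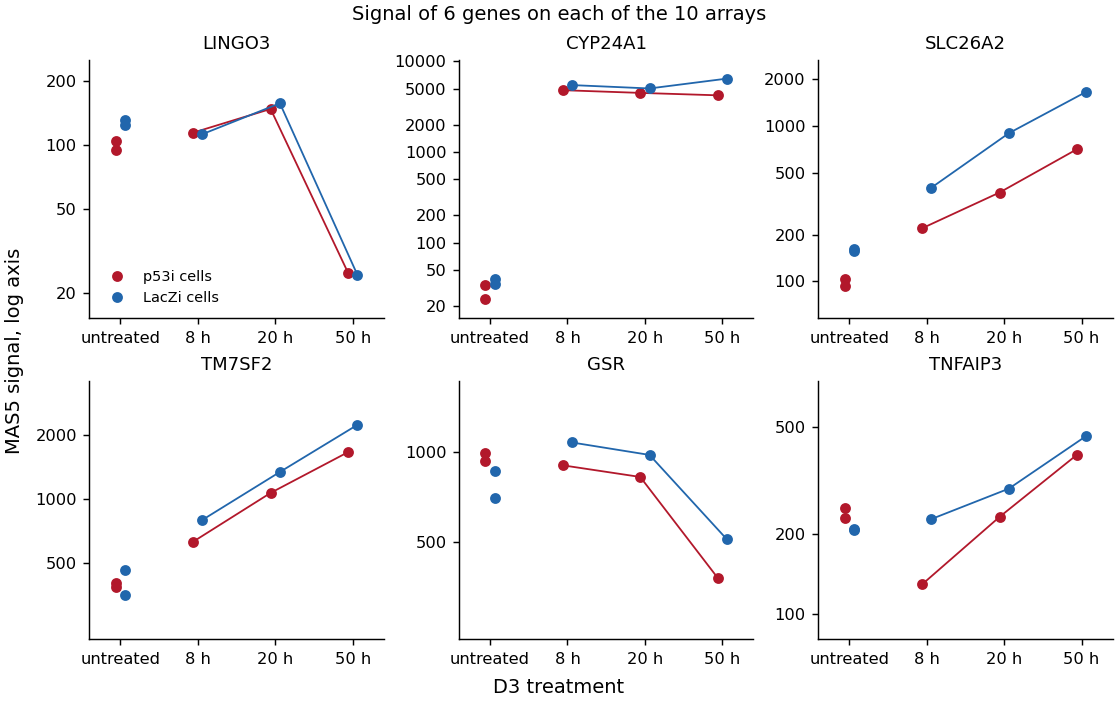
Signal of 6 genes (log axes) on each of the 10 arrays, against D3 treatment, with p53i cells in red and LacZi cells in blue, 1 point per array and lines joining the D3 arrays of a siRNA. CYP24A1 was flat after 8 h, SLC26A2 and TM7SF2 were highest at 50 h in both siRNAs, and LINGO3 and GSR were lowest at 50 h.

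Over a list of known VDR targets, 29 of 44 genes were above the filter. At 50 h 13 of the 29 were higher in both siRNAs (44.8%, against 25.5% of all genes) and 4 were lower in both, while 0 passed the test. The median step was 0.02 in p53i cells and 0.26 in LacZi cells, and the median over both was -0.01 without the LacZi 50 h array and 0.28 without the p53i 50 h array. TXNRD1, the thioredoxin reductase, had 7385 (p53i) and 7576 (LacZi) at 50 h, against 5670.0 (p53i) and 5927 (LacZi) at 20 h, and both 50 h arrays were above all 8 others (0.37 ± 0.12). CAMP, the antimicrobial peptide cathelicidin, had 189 (p53i) and 197 (LacZi) at 50 h, against 124 (p53i) and 139 (LacZi) at 20 h. IGFBP5, which binds insulin-like growth factors, was lower at 50 h, with 1192 (p53i) and 1506 (LacZi), against 1460.1 (p53i) and 1996 (LacZi) at 20 h. For IGFBP5 the p53i 20 h array lay below the LacZi 50 h array, so the times overlapped.

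Of the genes that were lower under D3 at 8 h or 20 h, CLTCL1, a clathrin heavy chain gene, was at its lowest at 20 h. Its signal was 40.5 in p53i cells and 76.7 in LacZi cells at 50 h, against 15.7 in p53i cells and 29.4 in LacZi cells at 20 h and 135 to 168 in untreated cells. The step of 0.93 ± 0.27 did not pass the test, and all 4 values were below those at 8 h, which were 104 in p53i cells and 98.2 in LacZi cells. DDB2, a DNA damage binding protein, differed in sign between the siRNAs, with -0.22 in p53i cells and 0.83 in LacZi cells.

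The genes of G2 and mitosis were lower at 50 h than at 20 h in most cases, each by a small amount. All 43 genes of the list were above the filter. Of these, 34 (79.1%) were lower at 50 h in both siRNAs and 0 were higher in both, against 27.2% and 25.5% of all genes. Both 50 h arrays lay below both 20 h arrays for 20 of the 43 (46.5%, against 14.4% of all genes). The median step was -0.24 in p53i cells and -0.13 in LacZi cells, and 0 of the 43 genes passed the test. A like difference was present within the untreated cells, where replicate 2 lay below replicate 1 in both siRNAs for 35 of the 43 genes (81.4%, against 29.6% of all genes), with medians of -0.29 in p53i cells and -0.22 in LacZi cells. The part of whatever separates the duplicates in the step was not tested, and in bulk RNA fewer dividing cells and less RNA per cell cannot be told apart. Against the mean of the untreated arrays, the medians at 8, 20 and 50 h were -0.18, -0.42 and -0.73 in p53i cells and -0.15, -0.47 and -0.58 in LacZi cells.

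KIF11, the kinesin that pushes spindle poles apart, had the largest difference of the list. Its signal was 178 in p53i cells and 290.2 in LacZi cells at 50 h, against 274 in p53i cells and 400.0 in LacZi cells at 20 h, a step of -0.51 ± 0.19. DLGAP5, a spindle assembly factor, had 203 (p53i) and 279.6 (LacZi) at 50 h, against 299 (p53i) and 370.1 (LacZi) at 20 h, and both 50 h arrays were the lowest of the 10. BUB1, a kinase of the spindle checkpoint, had 269 (p53i) and 342 (LacZi) at 50 h, against 396 (p53i) and 399 (LacZi) at 20 h, again below all 8 others. Weaker BUB1 probe sets, with mean signals of 57.8 and 40.5, gave mean steps of 0.21 and 0.04. MAD2L1, another checkpoint protein, had 363 (p53i) and 593 (LacZi) at 50 h, against 502 (p53i) and 647 (LacZi) at 20 h, but its 2 other probe sets, with mean signals of 159 and 105, gave mean steps of 0.21 and 0.05. CCNB1, the cyclin that drives entry into mitosis, had 1085 (p53i) and 1423 (LacZi) at 50 h, against 1425 (p53i) and 1578 (LacZi) at 20 h. Its partner kinase CDK1 differed in sign between the siRNAs, with -0.40 in p53i cells and 0.16 in LacZi cells. MKI67, the gene of the proliferation antigen Ki-67, had steps of -0.09 in p53i cells and 0.09 in LacZi cells in its brightest probe set. Of its 3 other probe sets, 1 gave -0.32 in p53i cells and -0.41 in LacZi cells, another -0.22 (p53i) and -0.23 (LacZi), and the last -0.02 (p53i) and 0.05 (LacZi), so the probe sets disagreed.

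**Figure D3:**
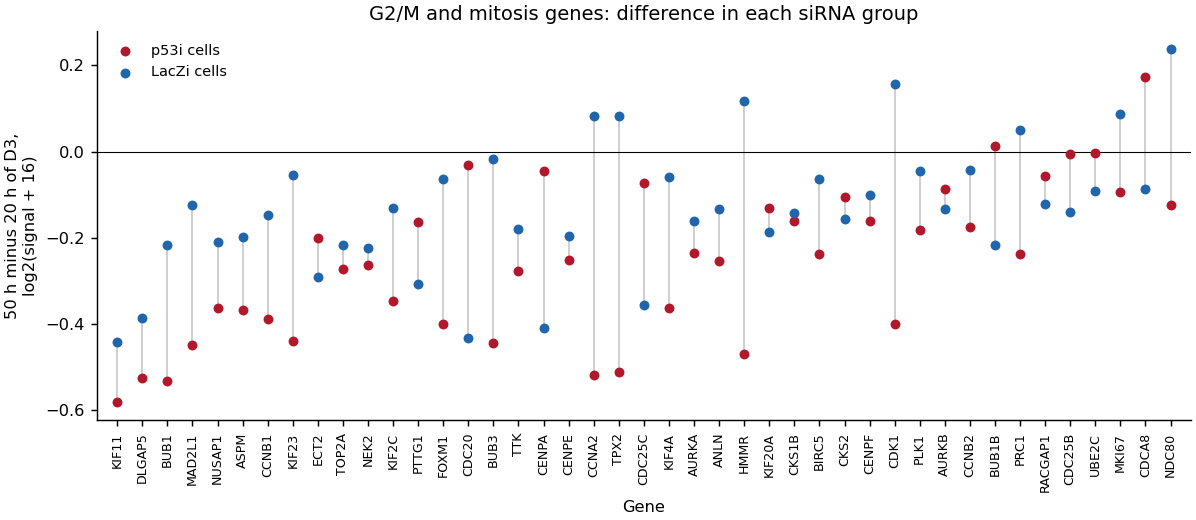
The 50 h minus 20 h difference (log2(signal + 16) scale) of each of the 43 G2/M genes, in p53i cells (red) and LacZi cells (blue), ordered by the mean of both, with grey lines joining the siRNAs of a gene. 34 genes were below 0 in both siRNAs and 0 were above 0 in both.

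Promoters of many G2/M genes are known to carry a cell cycle homology region (CHR), with the letters TTTGAA, and CCAAT boxes. RefSeq promoter windows (250 bases before to 50 after each gene's start, GRCh38.p14) were matched by symbol for 35 of the 43 genes. TTTGAA on either strand (TTCAAA on the other) was found in 24 of the 35 (68.6%), against 9.87% of the 9764 tested genes with a window and 15.2% of all 35116 windows. CCAAT on either strand (ATTGG on the other) was found in 28 of the 35 (80%), against 37.3% of the tested genes and 34.6% of all windows. Both were found in 21 of the 35 (60%), against 4.26% and 5.9%. Where a gene had several windows, the first was used. A match describes letters only and shows no binding. The list holds known G2/M genes and was not chosen by the step, so these shares describe the list and not the step. The windows of the 4 genes of the list with the largest steps follow in the gene's own direction, 5′ to 3′, with the matches to both motifs on either strand in capitals. They are KIF11 at chr10:92592880-92593179 (plus strand), DLGAP5 at chr14:55191536-55191835 (minus strand), BUB1 at chr2:110678014-110678313 (minus strand) and MAD2L1 at chr4:120066799-120067098 (minus strand).
KIF11: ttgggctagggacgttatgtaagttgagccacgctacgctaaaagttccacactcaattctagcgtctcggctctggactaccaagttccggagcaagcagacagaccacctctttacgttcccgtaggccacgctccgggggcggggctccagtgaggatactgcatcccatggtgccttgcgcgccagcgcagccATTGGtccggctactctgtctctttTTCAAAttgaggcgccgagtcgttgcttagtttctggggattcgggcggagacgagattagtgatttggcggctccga
DLGAP5: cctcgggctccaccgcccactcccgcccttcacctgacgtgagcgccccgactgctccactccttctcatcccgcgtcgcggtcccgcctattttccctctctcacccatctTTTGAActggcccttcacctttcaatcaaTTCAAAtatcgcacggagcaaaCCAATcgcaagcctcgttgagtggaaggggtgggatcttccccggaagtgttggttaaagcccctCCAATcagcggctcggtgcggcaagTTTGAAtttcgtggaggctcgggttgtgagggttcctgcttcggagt
BUB1: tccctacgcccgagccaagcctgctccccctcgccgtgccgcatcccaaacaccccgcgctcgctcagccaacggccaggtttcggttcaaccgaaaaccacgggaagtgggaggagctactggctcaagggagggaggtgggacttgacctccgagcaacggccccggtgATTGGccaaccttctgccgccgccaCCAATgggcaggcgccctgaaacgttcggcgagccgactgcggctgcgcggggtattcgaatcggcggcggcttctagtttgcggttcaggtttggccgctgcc
MAD2L1: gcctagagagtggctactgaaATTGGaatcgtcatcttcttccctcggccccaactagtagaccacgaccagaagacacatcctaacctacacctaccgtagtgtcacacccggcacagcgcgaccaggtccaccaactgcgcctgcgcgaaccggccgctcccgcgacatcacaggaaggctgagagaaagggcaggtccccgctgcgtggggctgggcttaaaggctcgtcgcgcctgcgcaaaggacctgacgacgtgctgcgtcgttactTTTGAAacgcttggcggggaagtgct

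In these windows KIF11 had 1 TTTGAA match, which began 28 bases before the start, DLGAP5 had 3 and MAD2L1 had 1, 24 bases after the start. BUB1 had no match to these letters but had 2 CCAAT matches. The steps of the 4 genes were -0.51, -0.46, -0.37 and -0.29, and none passed the test.

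Other genes of growth control showed less. Of 43 genes of G1/S and DNA synthesis, 9 were higher at 50 h in both siRNAs (20.9%, against 25.5% of all genes). In this list 11 were lower in both (25.6%, against 27.2% of all genes), with medians of -0.10 in p53i cells and 0.06 in LacZi cells. TK1, thymidine kinase, had 2354 (p53i) and 1712 (LacZi) at 50 h, against 2892 (p53i) and 2083 (LacZi) at 20 h. CDKN1A, the CDK inhibitor p21, had 346 (p53i) and 459 (LacZi) at 50 h, against 305 (p53i) and 399.6 (LacZi) at 20 h, a step of 0.18 ± 0.28. CCND1 differed by 0.07 ± 0.13 and MYC by 0.36 ± 0.20. MDM2, the ubiquitin ligase of p53, had steps of -0.70 in p53i cells and -0.05 in LacZi cells in its brightest probe set, but the next for MDM2, with a mean signal of 466, gave 0.15 in p53i cells and -0.14 in LacZi cells. ERBB2 had 19099 (p53i) and 14113 (LacZi) at 50 h, against 13948 (p53i) and 13764 (LacZi) at 20 h. Of 26 p53 target genes, 10 were higher in both siRNAs (38.5%, against 25.5%) and 5 were lower in both (19.2%, against 27.2%). BCL2L11, which encodes the pro-apoptotic protein BIM, had 807 (p53i) and 1218 (LacZi) at 50 h, against 640.1 (p53i) and 839.8 (LacZi) at 20 h, a step of 0.43 ± 0.13 that did not pass the test. This value rests on 1 of 7 probe sets for BCL2L11, and the next 3 by signal gave mean steps of 0.05, 0.06 and -0.11.

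Most interferon-stimulated genes had the larger of their steps in p53i cells. Of the 34 genes above the filter (45 in the list), 16 were higher at 50 h in both siRNAs (47.1%, against 25.5% of all genes) and 3 were lower in both, and 0 passed the test. The median step was 0.44 in p53i cells and 0.05 in LacZi cells, and 24 of the 34 had the larger step in p53i cells (70.6%, against 48.7% of all genes). The median over both siRNAs, 0.24, was 0.02 without the p53i 50 h array and 0.56 without the LacZi 50 h array. Both 50 h arrays lay above both 20 h arrays for 0 of the 34 genes, against 13.4% of all genes. A wide gap between the siRNAs can prevent this order whatever the step. In ISG15 the LacZi 50 h signal was 422 and the p53i 20 h signal 2234, so the count says little about the step.

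ISG15, a ubiquitin-like modifier, had signals of 4183 in p53i cells and 422 in LacZi cells at 50 h, against 2234 in p53i cells and 282 in LacZi cells at 20 h. The untreated p53i duplicates, at 1486 and 3029.8, differed from each other by more than the steps in either siRNA. IFI27, a mitochondrial protein induced by interferon, had 1704 (p53i) and 52.1 (LacZi) at 50 h, against 1060.5 (p53i) and 6.66 (LacZi) at 20 h. In LacZi cells the 50 h value was close to the untreated values of 55.8 and 50.1. IRF9, a subunit of the complex that carries the interferon signal to the nucleus, had 1144 (p53i) and 372 (LacZi) at 50 h, against 794 (p53i) and 230.0 (LacZi) at 20 h, a step of 0.59 ± 0.19. OAS3, a sensor of double-stranded RNA, had 531 (p53i) and 73.7 (LacZi) at 50 h, against 295 (p53i) and 48.6 (LacZi) at 20 h. XAF1 and IFI35 differed in sign between the siRNAs, with 1.33 and 0.99 in p53i cells and -0.36 and -0.79 in LacZi cells. USP18, which removes ISG15 from proteins, was lower at 50 h in both siRNAs, with -0.24 in p53i cells and -0.58 in LacZi cells.

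**Figure D4:**
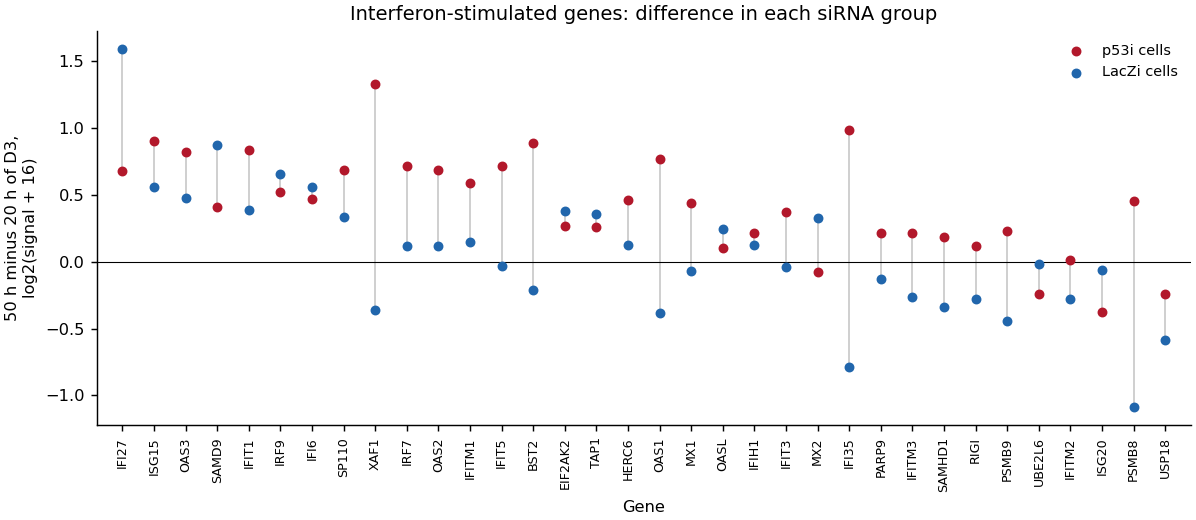
The 50 h minus 20 h difference (log2(signal + 16) scale) of each of the 34 interferon-stimulated genes above the filter, in p53i cells (red) and LacZi cells (blue), ordered by the mean of both. The p53i step was the larger in 24 of the 34 genes.

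The difference of the steps between the siRNAs was also tested for each gene, with the spread taken from the untreated duplicates. Of all genes, 0% passed (limma, with an unadjusted p under 0.05 in 274), so no gene was shown to have unlike steps in this fit. With the replicate number as a block 1 gene, UTS2R, passed, with a difference of -3.58 (p53i minus LacZi) and an adjusted p of 0.011. The smallest p-value without the block also belonged to UTS2R, the receptor of urotensin, with 34.9 in p53i cells and 149 in LacZi cells at 50 h, against 166 in p53i cells and 33.1 in LacZi cells at 20 h. The other 6 arrays lay between 129.8 and 169, so 1 array at each time stood apart. In RRP1, a ribosome biogenesis gene, the LacZi 20 h array stood apart, with 37.0 against 122 to 218 on the other 9 arrays. Its other probe set, with a mean signal of 65.9, was low on both 20 h arrays and gave 1.24 in p53i cells and 2.30 in LacZi cells. SCYL3, SRGAP2 and STARD7-AS1 were next by p, and none of the 5 genes passed the test without the block.

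Genes of inflammation and stress gave the next group. Of 20 NF-kB and inflammatory genes, 10 were higher at 50 h in both siRNAs (50%, against 25.5% of all genes). In this list 1 gene was lower in both (5%, against 27.2% of all genes). Of 27 immediate early genes 15 were higher (55.6%) and 3 lower (11.1%). Of 21 genes of the unfolded protein response 12 were higher (57.1%) and 2 lower (9.52%). None of them passed the test, and in the untreated duplicates 9, 13 and 9 genes of these lists (45%, 48.1% and 42.9%) were lower in replicate 2 in both siRNAs, against 29.6% of all genes. TNFAIP3, the ubiquitin-editing inhibitor of NF-kB, had signals of 394 in p53i cells and 463 in LacZi cells at 50 h, against 231 in p53i cells and 294 in LacZi cells at 20 h. Both 50 h arrays lay above all 8 others, where the highest was 294, and the step was 0.68 ± 0.22. ATF3, a stress-induced transcription factor, had 1535 (p53i) and 1743 (LacZi) at 50 h, against 1129 (p53i) and 1180.3 (LacZi) at 20 h, again above all 8 others (0.50 ± 0.13). Positions of both 50 h arrays outside the range of the 8 others were found for 6.97% of all genes, and of both 20 h arrays for 2.79%.

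Among redox genes, GSR, the enzyme that regenerates reduced glutathione, stood out. Its signal was 379.8 in p53i cells and 510.1 in LacZi cells at 50 h, against 824 in p53i cells and 976 in LacZi cells at 20 h, and 702 to 1073 on the 8 arrays other than those at 50 h. The 50 h arrays were below all others, and the step was -1.09 in p53i cells and -0.91 in LacZi cells, with an SE of 0.19 and an adjusted p of 0.385. A second probe set for GSR, with a mean signal of 309, gave -0.35 in p53i cells and 0.18 in LacZi cells, so the probe sets disagreed. Of 22 genes of the NRF2 and redox list, 10 were higher at 50 h in both siRNAs (45.5%, against 25.5% of all genes). In this list 3 were lower in both (13.6%, against 27.2% of all genes). In the untreated duplicates 10 genes of this list (45.5%) were also higher in replicate 2 in both siRNAs, against 30.9% of all genes. ABCC3, an exporter of conjugated compounds, had 921 (p53i) and 1268 (LacZi) at 50 h, against 752 (p53i) and 695 (LacZi) at 20 h.

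Genes of secretion and of the epithelial surface gave values in the same range. S100A7, the antimicrobial protein psoriasin, had 2249 in p53i cells and 4987 in LacZi cells at 50 h, against 1129 in p53i cells and 2952 in LacZi cells at 20 h, a step of 0.87 ± 0.36. The untreated LacZi duplicates, at 767 and 1978, were further apart than the step. KRT5, a basal keratin, had 92.0 (p53i) and 192 (LacZi) at 50 h, against 37.3 (p53i) and 88.2 (LacZi) at 20 h. Of 21 S100 proteins and annexins, 12 were higher at 50 h in both siRNAs (57.1%) and 5 were lower in both (23.8%). Of 27 lysosome and autophagy genes 16 were higher in both (59.3%) and 3 were lower in both (11.1%). Over all genes these shares were 25.5% and 27.2%. The median step of the S100 and annexin list, 0.16, was 0.0087 without the p53i 50 h array and 0.32 without the LacZi 50 h array. In the untreated duplicates 13 and 12 genes of these lists (61.9% and 44.4%) were higher in replicate 2 in both siRNAs, against 30.9% of all genes. CD63, a membrane protein of late endosomes, had 9242 (p53i) and 8409 (LacZi) at 50 h, against 6779.8 (p53i) and 7098 (LacZi) at 20 h, with both 50 h arrays above all 8 others (0.35 ± 0.12). COL12A1, a fibril-associated collagen, had 338 (p53i) and 512 (LacZi) at 50 h, against 200.1 (p53i) and 326 (LacZi) at 20 h. None of these genes passed the test.

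Lists of metabolic genes had small median steps in LacZi cells, while most genes of glycolysis and the hypoxia response were higher at 50 h in p53i cells. Of 34 genes of glycolysis and the hypoxia response, 30 had the larger step in p53i cells (88.2%, against 48.7% of all genes), with medians of 0.24 in p53i cells and -0.03 in LacZi cells. In both siRNAs 12 were higher (35.3%, against 25.5% of all genes) and 2 were lower (5.88%, against 27.2%). The median over both siRNAs, 0.10, was -0.02 without the p53i 50 h array and 0.21 without the LacZi 50 h array. SCD, the stearoyl-CoA desaturase, had 9333 (p53i) and 8991 (LacZi) at 50 h, against 7425 (p53i) and 7435 (LacZi) at 20 h, with both 50 h arrays above all 8 others. Cholesterol synthesis genes other than TM7SF2 had no common direction, with 4 of the 18 genes of the list, TM7SF2 among them, higher in both siRNAs and 3 lower in both. Among chaperones CHORDC1, a cochaperone of HSP90, had 1221 (p53i) and 1577 (LacZi) at 50 h, against 1739 (p53i) and 2239.8 (LacZi) at 20 h, a step of -0.50 ± 0.15 that did not pass the test.

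**Figure D5:**
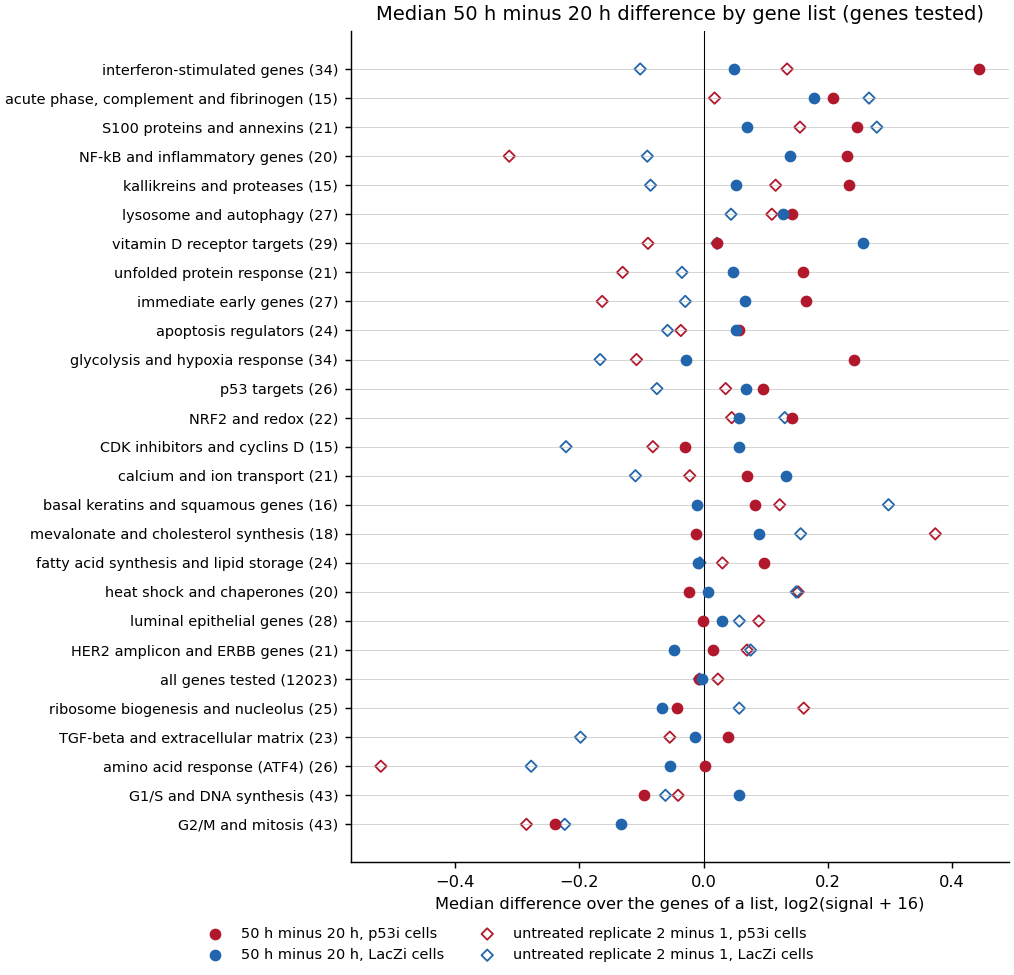
Median difference over the tested genes of each of the 26 gene lists and of all genes (log2(signal + 16) scale), with list sizes in brackets. Filled circles are 50 h minus 20 h in p53i (red) and LacZi (blue) cells, and open diamonds are untreated replicate 2 minus replicate 1. The diamonds spread at least as widely as the circles, and for G2/M genes all 4 marks lie below 0.

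The largest differences shared by the siRNAs belonged to weakly expressed genes. Ranked by the smaller of the 2 paired differences, the 12 genes highest at 50 h had mean signals from 41.8 to 95.4. They were KRTAP3-1, FGB, ZNF575, FGD2, LINC00491, DBF4B, AVPR1B, SLC6A14, MEIOC, NOTUM, ZC3H6 and CHRNB2. The 12 lowest were LINGO3, IRAG1-AS1, SLC10A1, SLC38A2-AS1, KCNH3, CEACAM5, KCNN1, SIMC1P1, WDR11-DT, FOLR2, NUTM1 and IDO1, of which LINGO3 alone passed the test. MAS5 signals this low lie near background and vary widely between arrays. The ranking itself chose these differences, so they are given as a description.

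KRTAP3-1, a hair keratin-associated protein gene, had 126 in p53i cells and 415 in LacZi cells at 50 h, against 26.3 in p53i cells and 49.2 in LacZi cells at 20 h and at most 34.8 on the other 6 arrays. FGB, the fibrinogen beta chain, had 272 (p53i) and 221 (LacZi) at 50 h, against 70.6 (p53i) and 4.46 (LacZi) at 20 h and at most 56.9 on the other 6. In both genes the 50 h arrays were above all others, and the limma adjusted p-values were 0.203 and 0.385. The signal filter of 35.4 used the mean over all arrays, those at 50 h among them. On most of the other arrays both genes lay below that level, so their high 50 h signals helped admit them to the test. Each of the 2 genes was missing from 4 of the 25 alternatives. A second FGB probe set with a mean signal of 13.1 gave 1.26 in p53i cells and 1.38 in LacZi cells. FGA, the alpha chain, had 5.96 in p53i cells and 50.0 in LacZi cells at 50 h, against 43.3 in p53i cells and 18.3 in LacZi cells at 20 h, and FGG was below the filter. The summed signal of 5 hepatocyte markers, FGB among them, was 408 (p53i) and 366 (LacZi) at 50 h, against 197 (p53i) and 127 (LacZi) at 20 h. Most of that difference was FGB itself, since the other 4 markers summed to 136 (p53i) and 145 (LacZi) at 50 h, against 126 (p53i) and 122 (LacZi) at 20 h, and albumin (ALB) stayed at or below 33.6 on every array.

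In other genes of the ranking the 20 h arrays were the ones that stood apart. ZNF575, a zinc finger gene, had 179 in p53i cells and 156 in LacZi cells at 50 h, against 32.7 in p53i cells and 41.2 in LacZi cells at 20 h and 68.4 to 112 on the other 6 arrays. The 20 h arrays were the lowest and the 50 h arrays the highest of the 10, and the step of 1.79 ± 0.25 had an adjusted p of 0.0722. DBF4B, an activator of the replication kinase CDC7, had 60.3 (p53i) and 53.7 (LacZi) at 50 h, against 7.40 (p53i) and 9.95 (LacZi) at 20 h, while the other 6 arrays ran from 29.2 to 65.2. Its 50 h values were within the range of those 6 and only the 20 h values were outside. CEACAM5, a cell surface glycoprotein, had 48.1 (p53i) and 27.6 (LacZi) at 50 h, against 122 (p53i) and 117 (LacZi) at 20 h, and its other probe set gave 0.46 in p53i cells and 0.48 in LacZi cells. Over the 12 highest genes both 50 h arrays lay outside the 8 others in 6 and both 20 h arrays in 4. Over the 12 lowest these counts were 6 and 5. The shares over all genes were 6.97% and 2.79%, but the ranking used these same arrays, so high counts were built in.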

How the data were processed

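RNA of 10 SKBR3 samples was measured on 1-colour Affymetrix arrays from 6 ug of total RNA, per the labels. Per the submitters' processing notes the deposited values are MAS5 signals, 1 linear intensity per probe set and array. The software version was not given in the sources used here. Without the lowest and highest 2% the mean was 200 on each array, so the authors' values had been scaled array by array, and nothing further was applied. Of 54675 probe sets, 41097 had 1 gene symbol in the platform annotation, 1801 had several and 11777 none, and only the first kind was used. Symbols were checked against RefSeq by gene ID, with 0 changed and 54 kept as annotated.

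The upper 50% of probe sets by mean log2(signal + 16) were kept, with the highest per gene, which left 12023 genes. On that log2 scale changes of weak genes are understated. The test of the step was limma's moderated two-sided test (version 3.58.1, R 4.3.3), with lmFit, eBayes, a trend on intensity and a threshold of 0.05 after Benjamini-Hochberg adjustment across the genes tested. The model had terms for siRNA and for D3 time over all 10 arrays, which left 5 residual degrees of freedom. The difference of the steps between siRNAs used 8 group means and 2 residual degrees of freedom. An exact test on the 4 arrays could not go below 0.333, or 0.5 paired. The fit was tested on simulated data with known changes.

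Named genes were up to 12 calls each way, the 12 highest and 12 lowest by the smaller paired difference, 5 for the siRNA difference, a list of calcitriol, p53 and growth genes, and up to 4 of each of 26 gene lists by size of step. CPS1 and the genes chosen at 8 h were added after their values were seen. Some list members named in the text were also taken from the results outside these rules, among them TXNRD1, CAMP, IGFBP5, CCNB1, CDK1, IRF9, XAF1 and USP18. So were PDGFD, SEMA3C and RFTN1, given further below. The members and lists were chosen with earlier results of these data known. No label records an array batch, and none was tested. Promoter windows came from RefSeq. The alternatives were other normalizations, offsets, filters, probe set rules and models, and leaving out each array.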

Additional observations from a re-analysis of the deposited data

How the results depend on the processing

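With 1 array for each siRNA and D3 time, a step is only as precise as the spread between the siRNAs, and signals near the filter of 35.4 are close to background. The count of genes called for the step (1, LINGO3) was 2 with quantile normalization, with the mean of probe sets and with no intensity trend (ZNF575 joined in each), and 3 with an offset of 64 (ZNF575 and FGB joined). It was 2 with the ACTB ratio as a covariate, where CPS1 joined. It was 0 with no filter, with the upper 25% of probe sets and with 8 group means. With only the 4 arrays of the step it was 11 and with only the 6 D3 arrays 3, LINGO3 not among them. The 11 were SLC26A2, TM7SF2, STEAP4, S100A7, FGB, KRTAP3-1, CPS1 and CYP1A1, higher at 50 h, and GSR, KRT4 and MINDY3, lower. The 3 were CPS1 and S100A7, higher, and GSR, lower. The fit to 4 arrays left 1 residual degree of freedom. Without 1 array at a time it ran from 0 to 2. Median centring, no offset, no siRNA term and every probe set taken alone kept LINGO3 as the only call.

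The labels give the untreated p53i and LacZi arrays the same replicate numbers, and nothing says that a number marks a shared culture. The differences between duplicates had a correlation of 0.216 between the siRNAs, across genes. With the replicate number as a block the step still had 1 call, LINGO3, with an adjusted p of 0.0285, and the siRNA difference had 1 call, UTS2R, with a difference of -3.58 (p53i minus LacZi) and an adjusted p of 0.011, where it had 0 without the block. The siRNA difference had 0 calls in the other alternatives, and it could not be fitted without a 20 h or 50 h array.

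The genes at least 2-fold in both siRNAs (25) numbered 50 with no offset, 5 with an offset of 64, 119 with no filter and 0 in the upper 25%. Interferon-stimulated genes higher in both siRNAs (16) numbered 10 in the upper 25%, where 15 of the list were tested. G2/M genes lower in both siRNAs (34) numbered 28 to 34. Of 141 named genes, 26 changed sign in at least 1 of 25 alternatives, LINGO3, SLC26A2, TM7SF2, GSR, FGB and KRTAP3-1 not among them.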

Other observations

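Genes whose signal was ordered strictly over untreated cells, 8, 20 and 50 h in both siRNAs, with both untreated arrays on the outer side, were counted after the values had been seen. Rising order was found for 78 and falling order for 122 of the 12023 genes tested, and 57 and 113 of these had a mean signal of 200 or more. Falling order was found for 10 of the 43 G2/M genes, beside the 122 of 12023 over all genes. The order depends on the untreated arrays, where replicate 2 lay below replicate 1 in both siRNAs for 35 of these 43 genes. PDGFD, a growth factor of the platelet-derived family, had 1055 in p53i cells and 1205 in LacZi cells at 50 h, against 657 in p53i cells and 736 in LacZi cells at 20 h and at most 402 in untreated cells. SEMA3C, a secreted semaphorin, had 1695 (p53i) and 2702 (LacZi) at 50 h, against 1151 (p53i) and 1663 (LacZi) at 20 h. RFTN1, a lipid raft protein, had 61.2 (p53i) and 62.5 (LacZi) at 50 h, against 158 (p53i) and 104 (LacZi) at 20 h and at least 185 in untreated cells. Of these 3 genes none passed the test of the step.

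CPS1, the enzyme that feeds ammonia into the urea cycle, came up in 4 of the alternative fits. Its signal was 5275 in p53i cells and 4697 in LacZi cells at 50 h, against 3106 in p53i cells and 2846 in LacZi cells at 20 h. Both 50 h arrays lay above all 8 others, where the highest value was 3106, and the step was 0.74 ± 0.15 with a limma adjusted p of 0.551.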
